A study of Mus musculus with 18 samples.

Results

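Pemafibrate was given for 6 h, from T14 to T20, to AML12 cells with synchronized circadian clocks, a window that the series' design text describes as mimicking day, and RNA was sequenced. Libraries were chosen by their labels: 3 pemafibrate libraries, AML12 treated from T14 to T20, replicates 1 to 3, and 3 DMSO libraries, vehicle over the same window, replicates 1 to 3. They are 6 of the 18 libraries of the series, which also holds 6 libraries of a 24 h exposure (T0 to T24) and 6 of a 6 h exposure from T24 to T30, described as mimicking night. AML12 is an established mouse hepatocyte line from animals that carry a transforming growth factor alpha transgene. The sources used here give neither the dose nor the way of synchronization, and do not say whether replicates were separate cultures. The p-values therefore describe the spread among these libraries, which may be technical.

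Pemafibrate selectively modulates PPARα, a nuclear receptor that pairs with RXR on direct repeats of a short hexamer spaced by a single base. In liver this receptor is bound by fatty acids and fibrates and drives genes for fatty acid uptake, carnitine-dependent import into mitochondria, β-oxidation, ketone synthesis and the coating of lipid droplets. The circadian clock drives rhythmic transcription of the receptor gene in liver.

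Every value below is an estimated transcript count per gene, scaled by the authors within the 6 libraries of this window and called here a normalised count. Library totals lay between 32288163 and 33746660 in the pemafibrate libraries and between 32268547 and 33884634 in the DMSO libraries, with 17487 to 17558 genes above 0 in pemafibrate libraries and 17569 to 17641 in DMSO libraries. Fold changes are differences of log2(value + 1), pemafibrate minus DMSO, within a replicate number, and a gene was tested where its mean over the 6 libraries was at least 10. This left 13210 genes.

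The label was set against markers of the liver's cell types. Hepatocyte genes were present, with Hnf4a at 7546, 8574 and 9662 in pemafibrate libraries and 7322, 7780.4 and 9428 in DMSO libraries, and Alb, the albumin gene, at 6576, 4029.9 and 3232 against 6689.7, 3887 and 3146. Other defining hepatocyte genes were near 0: the urea cycle enzyme Cps1 was at most 2.02 and the asialoglycoprotein receptor Asgr1 at most 1.66 in any library. Bile duct markers were uneven in level, and Krt19 was high, at 10029.9, 9984 and 12022 in pemafibrate libraries and 10714, 10388 and 12448 in DMSO libraries. Of the 7 bile duct markers, 1 of 6 tested had a positive fold change, against 48.7% of all genes tested. The summed level of these markers was 55514 to 76180.2 in pemafibrate libraries and 55501 to 76663.5 in DMSO libraries. Endothelial markers summed to 159 to 197 in pemafibrate libraries and 168 to 221 in DMSO libraries, with Cdh5 at 0 in every pemafibrate library. Stellate cell and fibroblast markers, 6 of 10 tested, summed to 26858.6 to 34218.6 in pemafibrate libraries and 26420.5 to 33882 in DMSO libraries. Kupffer cell and leukocyte markers, 4 of 10 tested, summed to 3904.61 to 5405.75 in pemafibrate libraries and 3828.19 to 5313.67 in DMSO libraries. Here 2 of the 10 genes had a mean of at least 50. The part of other cell types in the results was not tested.

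Samples differed first by replicate number. On the first principal component, 43.6% of the variance, 99.8% of the spread of scores lay between replicate numbers, and on the second, 26.7% of the variance, 98.3% did. The third, 11.4% of the variance, had 75.3% of its spread between treatments, with scores of 19.2, 2.22 and 10.04 in pemafibrate libraries 1 to 3 and −17.2, −5.57 and −8.70 in DMSO libraries 1 to 3. Only 0.97% of its spread lay between replicate numbers, which largely fixed that the members of a pair fall on opposite sides of 0. Pemafibrate was the higher member in every pair, with pair 1 the furthest apart and pair 2 the closest together.

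**Figure D1:**
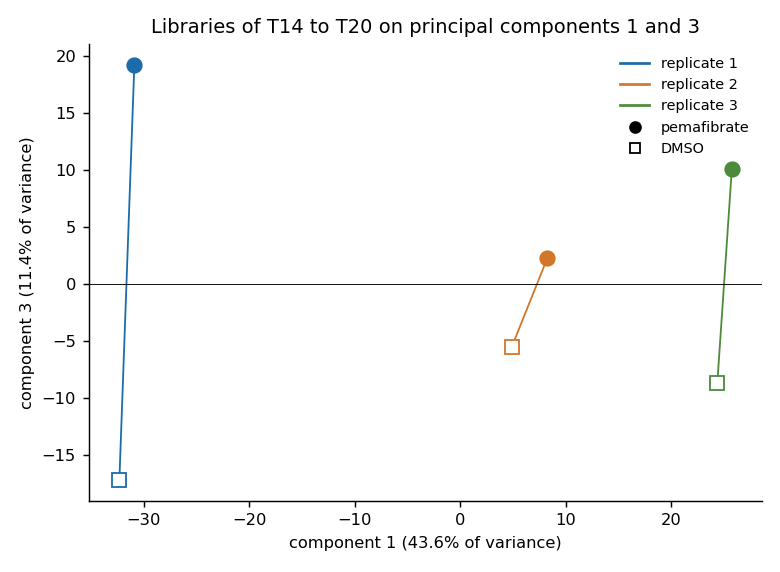
Scores of the 6 libraries on principal component 1 (horizontal, 43.6% of the variance) and component 3 (vertical, 11.4%) of log2(value + 1) over 13210 genes; colours are replicate numbers, filled circles pemafibrate and open squares DMSO. Component 1 separates the replicate numbers, and component 3 puts pemafibrate (2.22 to 19.2) above DMSO (−17.2 to −5.57).

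Over all genes the response was small. With the replicate number as a block, limma called 4 of 13210 genes higher (0.0303%) and 1 lower (0.00757%) at an adjusted p under 0.05, 5 in all (0.0379%). By the same rule 7 of 13325 genes were called at T0 to T24 (0.0525%) and 5 of 13231 at T24 to T30 (0.0378%). Limma without the replicate block gave 0 calls (0%), and its unadjusted p was under 0.05 in 73 genes (0.553%). The called genes that rose and are named here are Acot1, Aldh1a1 and Plin2, and the gene that fell was Gm10241. Genes with an unadjusted p under 0.05 in the paired fit numbered 481 higher (3.64%) and 594 lower (4.5%), together 1075 (8.14%). A fold change of at least 1.5 in all 3 pairs was found in 16 genes higher (0.121%) and 15 lower (0.114%). The median log2 fold change of all genes tested was −0.0023. The 3 pairs' fold changes correlated little with each other across genes, with Pearson's r of 0.062, 0.107 and −0.0073. Spearman's rho for the same comparisons was 0.071, 0.076 and 0.072. Both are descriptions across genes that are not independent replicates.

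Among the 3 named genes that passed the test as higher, Acot1 had the largest fold change. Acot1, the cytosolic thioesterase that splits long-chain acyl-CoA into free fatty acid and CoA, had normalised counts of 3969.6, 4033 and 2781 in pemafibrate libraries, against 2164, 2626 and 1807 in DMSO libraries. The lowest pemafibrate library lay above the highest DMSO library. Acot1 rose by 0.71 ± 0.06 (log2, SE, 3 pairs), 1.63-fold, with an adjusted p of 0.0196. Acot2, its mitochondrial neighbour in the same family, had 504, 393 and 318 in pemafibrate libraries and 253, 235 and 183 in DMSO libraries. Those groups did not overlap either, and the log2 fold change of 0.84 ± 0.09 had an adjusted p of 0.0505, just short of the threshold. Acot1 and Acot2 are close paralogs, and reads shared between them could have been split by the authors' counting.

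Plin2, which codes for the perilipin that coats lipid droplets in most cells, had 13684, 12862 and 12627 in pemafibrate libraries and 10148, 10539.7 and 10022 in DMSO libraries. All pemafibrate libraries were above all DMSO libraries. Plin2 rose by 0.35 ± 0.03 (1.28-fold, adjusted p = 0.0434). The call rests on the pairs kept: without pair 1 or pair 3 Plin2 had an adjusted p over 0.05, and with those pairs and without pair 2 it passed. Angptl4, the secreted inhibitor of lipoprotein lipase, had 2058, 2050.4 and 1848 against 1350.4, 1498 and 1420.4 in DMSO libraries. Its groups did not overlap, and its log2 fold change of 0.48 ± 0.05 had an adjusted p of 0.0561.

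Genes of fatty acid import into mitochondria had smaller fold changes. Cpt1a, the carnitine palmitoyltransferase of the outer membrane that limits the rate of β-oxidation, had 14854, 14883 and 13058 in pemafibrate libraries, against 11992, 12805 and 11012 in DMSO libraries. The lowest pemafibrate value, in replicate 3, was above the highest DMSO value, in replicate 2, by a small margin. Its log2 fold change was 0.26 ± 0.03 with an adjusted p of 0.0647. Slc25a20, the carnitine-acylcarnitine carrier of the inner membrane, had 1009, 991 and 809.7 against 868, 877 and 681 in DMSO libraries, so the groups overlapped while each pair was higher. Its log2 fold change was 0.21 ± 0.05 (adjusted p = 0.508).

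A pair of low-level regulators had fold changes above the thioesterases' without passing the test. Creb3l3, the membrane-bound transcription factor CREB-H of hepatic lipid metabolism, had 108, 65.3 and 64.3 in pemafibrate libraries and 47.7, 29.7 and 30.5 in DMSO libraries. Pdk4, the kinase that shuts the pyruvate dehydrogenase complex, had 219.7, 162 and 151 in pemafibrate libraries and 71.6, 81.0 and 96.5 in DMSO libraries. In both genes every pemafibrate library exceeded every DMSO library. The log2 fold changes were 1.11 ± 0.17 for Creb3l3 (adjusted p = 0.199) and 1.08 ± 0.19 for Pdk4 (adjusted p = 0.290).

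Other members of the target list had fold changes near or below 0, apart from Ehhadh. Ehhadh, the peroxisomal bifunctional enzyme, stood at 0.25 ± 0.12 (log2, adjusted p = 0.634). Acsl1, a long-chain acyl-CoA synthetase, had 0.06 ± 0.06, the pantetheinase gene Vnn1 0.03 ± 0.06, the peroxisome division gene Pex11a 0.02 ± 0.08 and the fatty acid transporter Cd36 −0.09 ± 0.21. Acadm, the medium-chain acyl-CoA dehydrogenase, was lower in all pairs, with 2388, 2263 and 2305 in pemafibrate libraries and 2774, 2686 and 2329.6 in DMSO libraries. Its log2 fold change was −0.16 ± 0.05 (adjusted p = 0.541). Fgf21, Cyp4a10, Cyp4a14, Cidec and Fabp1 were under the mean of 10. Fabp1, the liver fatty acid binding protein, was listed at 2.00, 3.02 and 1.99 in pemafibrate libraries and at 0 in all DMSO libraries. Cyp4a10, an ω-hydroxylase induced by PPARα in mouse liver, was at 10.9, 0.996 and 4.04 in pemafibrate libraries and 8.95, 1.97 and 0 in DMSO libraries.

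Of the 21 listed targets, 16 were tested and 3 of these were called higher, against 0.0303% of all genes tested. A positive log2 fold change was found in 14 of the 16, against 48.7% of all genes tested. Higher in all 3 pairs were 11 (68.8%), against 14.6% of all genes tested, and 1 was lower in all 3, against 16%. In 7 of the 16 the groups did not overlap with pemafibrate higher, against 1.82% of all genes, and in 0 with pemafibrate lower, against 1.36%. The list's median log2 fold change was 0.25, with 0.29, 0.20 and 0.28 in pairs 1 to 3, beside −0.0023 for all genes tested. The list was compiled with earlier results of these data known, so its count is a description.

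**Figure D2:**
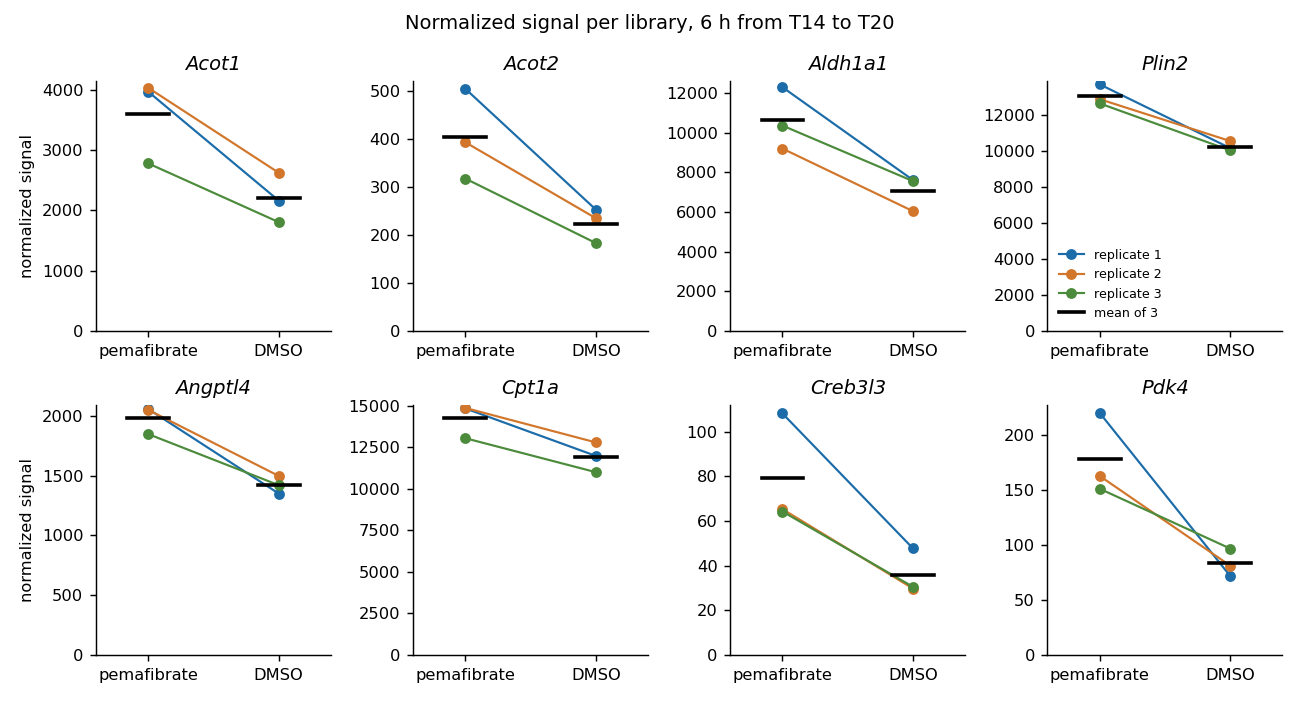
Normalised counts (vertical, from 0) of Acot1, Acot2, Aldh1a1, Plin2, Angptl4, Cpt1a, Creb3l3 and Pdk4 in each library, with pemafibrate left of DMSO, lines joining libraries of the same replicate number and black bars at the mean of 3. In each of these genes, shown after their values were seen, all pemafibrate points lie above all DMSO points.

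Sequences upstream of 4 of these genes are shown because the receptor's repeat can be looked for in them. Each is the 250 bases before the annotated start in RefSeq (mouse build GRCm38.p6), read 5′ to 3′ on the gene's strand, with capitals marking the hexamer AGGTCA, or its complement TGACCT where the hexamer is on the opposite strand. The build behind the expression values was not stated, so positions refer to RefSeq alone.
Acot1, chr12:84009252-84009501, plus strand: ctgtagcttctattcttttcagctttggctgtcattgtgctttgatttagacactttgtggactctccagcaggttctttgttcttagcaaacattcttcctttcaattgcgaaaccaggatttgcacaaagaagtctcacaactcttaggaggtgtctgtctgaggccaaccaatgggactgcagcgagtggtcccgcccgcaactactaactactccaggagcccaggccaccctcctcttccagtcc
Plin2, chr4:86670060-86670309, minus strand: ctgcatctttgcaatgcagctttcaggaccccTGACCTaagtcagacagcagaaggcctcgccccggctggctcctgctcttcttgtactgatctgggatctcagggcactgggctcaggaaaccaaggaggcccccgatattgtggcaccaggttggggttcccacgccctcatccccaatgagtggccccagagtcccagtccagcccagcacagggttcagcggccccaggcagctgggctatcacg
Cpt1a, chr19:3323051-3323300, plus strand: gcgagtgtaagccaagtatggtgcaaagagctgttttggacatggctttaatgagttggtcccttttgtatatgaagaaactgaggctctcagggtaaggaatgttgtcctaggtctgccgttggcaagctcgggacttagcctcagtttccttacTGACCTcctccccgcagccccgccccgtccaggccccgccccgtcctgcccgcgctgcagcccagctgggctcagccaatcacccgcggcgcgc
Creb3l3, chr10:81092592-81092841, minus strand: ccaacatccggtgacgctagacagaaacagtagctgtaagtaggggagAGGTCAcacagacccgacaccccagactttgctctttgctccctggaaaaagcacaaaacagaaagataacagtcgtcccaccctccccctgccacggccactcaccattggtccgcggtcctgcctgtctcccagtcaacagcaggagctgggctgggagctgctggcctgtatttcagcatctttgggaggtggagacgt

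Of 11 genes looked up, 10 had an entry, with 12 promoters between them. The hexamer was found on either strand in 3 of the 12 promoters, against 14.024% of 32851 mouse promoters of the same length. That set leaves out the promoters of a single chromosome. It began 218 bases before the start in Plin2 and 94 before it in Cpt1a, on the opposite strand in both, and 202 before it in a start of Creb3l3, on the gene's own strand. The direct repeat, a pair of AGGNCA copies on the same strand with a single base between them, was searched on both strands. It was in 0 of the 12, against 0.338% of the same 32851 promoters. A lack of these letters says nothing of the receptor outside this window of sequence. Acot1 held neither.

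Aldh1a1, the retinaldehyde dehydrogenase that makes retinoic acid, was the called gene of a different pathway. It had 12282, 9192 and 10350.5 in pemafibrate libraries and 7606, 6041 and 7554 in DMSO libraries, groups that did not overlap. Aldh1a1 rose by 0.58 ± 0.05 (log2, SE, 3 pairs), with an adjusted p of 0.0196. Its paralog Aldh1a7, which can share reads with it, had 254, 217 and 236 against 174, 152 and 198 in DMSO libraries and a log2 fold change of 0.43 ± 0.11 (adjusted p = 0.508). Cyp26b1, which degrades retinoic acid, had 66.5, 31.9 and 49.8 in pemafibrate libraries and 41.9, 23.2 and 39.0 in DMSO libraries. Each pair was higher in pemafibrate, by 0.48 ± 0.20 (log2, adjusted p = 0.601). Of 14 retinoid and aldehyde enzymes tested, 1 was called higher, against 0.0303% of all genes tested, and 0 were called lower. In all 3 pairs, 3 were higher (21.4%), near the 14.6% of all genes.

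Gm10241, annotated in GENCODE M21 as a processed pseudogene, had 96.1, 194 and 287 in pemafibrate libraries and 172, 350.3 and 539.8 in DMSO libraries. Levels differed more between replicate numbers than between treatments, and the groups overlapped. Gm10241 fell by 0.86 ± 0.09 on the log2 scale (adjusted p = 0.0484), and the call was lost without any single pair. Pseudogenes share sequence with their parents, so its reads may be another gene's.

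The receptor's own level was low and uneven. Ppara had 293, 174 and 167 in pemafibrate libraries and 168, 192 and 92.2 in DMSO libraries. It was higher in pairs 1 and 3 and lower in pair 2, with a log2 fold change of 0.50 ± 0.20 (adjusted p = 0.575). Its relative Ppard had 765, 817 and 669 against 852, 890.3 and 1009 in DMSO libraries, without overlap, and −0.29 ± 0.09 (adjusted p = 0.541). Ncor1, a nuclear receptor corepressor, had 9147, 9421 and 9395 in pemafibrate libraries and 8168, 8706 and 8387 in DMSO libraries. Its groups did not overlap, at 0.15 ± 0.03 (adjusted p = 0.368). Among 17 PPAR, RXR and coregulator genes tested, 0 passed the adjusted test. At an unadjusted p under 0.05, 4 were higher against 3.64% of all genes tested, and 1 was lower against 4.5%.

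No gene of mitochondrial fatty acid oxidation beyond the target list passed the test. Of 27 members tested, 22 had a positive log2 fold change, against 48.7% of all genes tested. In all 3 pairs, 9 were higher (33.3%, against 14.6% of all genes) and 3 lower (11.1%, against 16%). Eci2, an enoyl-CoA isomerase, had 0.18 ± 0.04 and Acadl, the long-chain acyl-CoA dehydrogenase, 0.16 ± 0.03. Acaa2, the thiolase, had 0.20 ± 0.05, Acadvl, the very-long-chain dehydrogenase, 0.15 ± 0.04 and Hadha, a trifunctional protein subunit, 0.12 ± 0.04. Adjusted p-values of these 5 lay between 0.359 and 0.529. The list's median was 0.05.

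Among 34 peroxisome genes tested, 0 passed and 21 were positive, against 48.7% of all genes tested. In all 3 pairs, 9 were higher (26.5%, against 14.6% of all genes) and 3 lower (8.8%, against 16%). Hsdl2, a peroxisomal dehydrogenase-like protein, had 1011, 949 and 669.8 in pemafibrate libraries and 618, 656 and 502 in DMSO libraries. All pemafibrate libraries were higher than all DMSO libraries, with 0.55 ± 0.07 and an adjusted p of 0.0941. Crot, the carnitine octanoyltransferase that exports shortened chains from peroxisomes, had 0.24 ± 0.03 (adjusted p = 0.164). Amacr, a racemase of branched-chain fatty acids, had −0.30 ± 0.08 (adjusted p = 0.508).

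Beside Plin2, droplet and lipolysis genes gave 11 tested, 0 called and 3 higher in all 3 pairs (27.3%, against 14.6% of all genes tested). Lipe, hormone-sensitive lipase, had 757, 669 and 525 in pemafibrate libraries and 586, 515 and 478 in DMSO libraries, a log2 fold change of 0.29 ± 0.07 (adjusted p = 0.508). Pnpla2, the adipose triglyceride lipase gene, had 0.04 ± 0.03. Of 12 fatty acid uptake and activation genes, 5 were positive, against 48.7% of all genes tested, and 0 passed. Acsm3, a medium-chain acyl-CoA synthetase at 20.1, 16.6 and 26.0 in pemafibrate libraries and 4.0, 16.5 and 7.5 in DMSO libraries, came to 1.246 ± 0.454 (log2, adjusted p = 0.564).

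Lipid synthesis genes mostly had small positive fold changes that did not pass. Of 20 lipogenic genes tested, 17 were positive, against 48.7% of all genes tested, with a median of 0.02. In all 3 pairs, 5 were higher (25%, against 14.6% of all genes), and 0 passed the test. Mlxipl, the glucose-responsive transcription factor ChREBP, went the other way, with 451, 317 and 227 in pemafibrate libraries, 569, 415 and 313 in DMSO libraries and a log2 fold change of −0.40 ± 0.08 (adjusted p = 0.361). Of 29 cholesterol genes, 22 were positive, against 48.7% of all genes tested, and 8 were higher in all 3 pairs (27.6%, against 14.6%). Hmgcs1, the cytosolic HMG-CoA synthase, had 0.14 ± 0.04, and squalene epoxidase Sqle had 0.10 ± 0.03. Lanosterol synthase Lss had −0.17 ± 0.05. Adjusted p-values of these cholesterol genes were between 0.508 and 0.545.

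**Figure D3:**
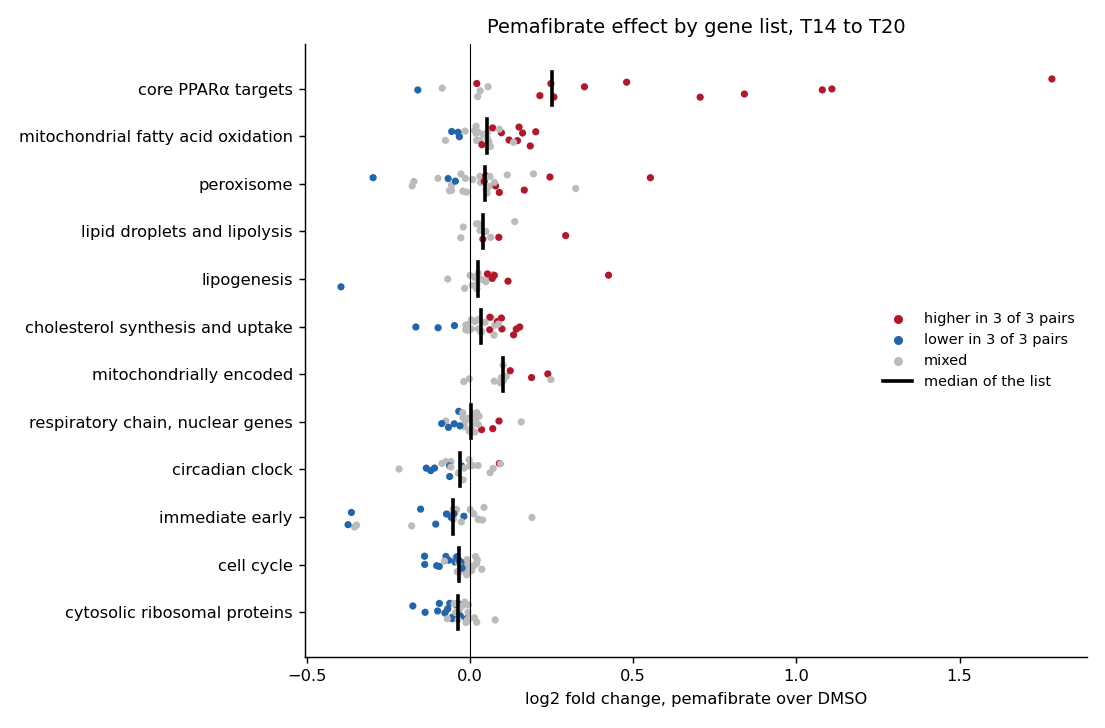
Log2 fold change (pemafibrate minus DMSO) of the tested members of each gene list; each point is a gene, coloured by whether all 3 pairs had the same direction, and the black bar is the list's median. The target list has a median of 0.25, and the medians of fatty acid oxidation (0.05), lipogenic (0.02) and clock (−0.03) genes lie close to 0.

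Transcripts of the mitochondrial genome had a positive median in pairs 1 and 2 and a negative one in pair 3. Of 13, 11 were positive, against 48.7% of all genes tested, and 3 were higher in all 3 pairs (23.1%, against 14.6%). The list's median was 0.10, with 0.16, 0.20 and −0.04 in pairs 1 to 3. mt-Atp8 had 25434, 28146 and 23904 in pemafibrate libraries and 22389, 23871 and 21628 in DMSO libraries, without overlap, and 0.19 ± 0.03 (adjusted p = 0.187). mt-Nd3 had 0.24 ± 0.04 (adjusted p = 0.290). Of 31 cytosolic ribosomal protein genes, 3 were positive, against 48.7% of all genes tested, and the median was −0.04. In all 3 pairs, 13 were lower, against 16% of all genes, and 0 were higher, against 14.6%. Rpl30, of the large subunit, had 9243, 10685 and 11773 in pemafibrate libraries and 10198, 12099 and 13561 in DMSO libraries, −0.18 ± 0.03 (adjusted p = 0.230). Nuclear genes of the respiratory chain had a median of 0.004 over 29 tested. None of these genes passed the adjusted test, and whether RNA quality had a part was not tested.

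Clock genes did not pass. Of 22 tested, 6 were positive, against 48.7% of all genes tested. In all 3 pairs, 1 was higher (Clock, 0.09 ± 0.04), against 14.6% of all genes. Lower in all 3 were 6 (27.3%, against 16%), among them Per3, Cry2 and Dbp. Dbp, a PAR bZIP factor driven directly by the clock, had 954, 941 and 674 in pemafibrate libraries and 1125, 982 and 724 in DMSO libraries, −0.13 ± 0.06 (adjusted p = 0.611). Per3 had −0.12 ± 0.06 and Cry2 −0.11 ± 0.06. Nr1d1, the REV-ERBα repressor, had 2033, 1849 and 1931 against 2202, 1679 and 1973 in DMSO libraries, and its log2 fold change of −0.003 ± 0.054 turns positive without pair 1 or pair 3.

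None of the immediate early or cell cycle genes passed the adjusted test. Of 23 immediate early genes tested, 7 were positive against 48.7% of all genes tested, 8 were lower in all 3 pairs against 16% of all genes, and 0 were higher in all 3 against 14.6%, with a median of −0.05. Nr4a1, an orphan nuclear receptor, had 319.8, 183 and 154 in pemafibrate libraries and 461, 228 and 188 in DMSO libraries, −0.37 ± 0.10, and Ier3 had −0.15 ± 0.04, both with an adjusted p of 0.508. Of 31 cell cycle genes, 8 were positive, against 48.7% of all genes tested, with a median of −0.03. In all 3 pairs, 11 were lower (35.5%, against 16% of all genes) and 0 higher, against 14.6%. Cdt1, the licensing factor of DNA replication, had −0.14 ± 0.04, and Mcm7, a helicase subunit, −0.09 ± 0.03. Of 7 hydrogen sulfide genes, 0 were positive, against 48.7% of all genes tested, with Cth, cystathionine γ-lyase, at −0.21 ± 0.10.

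Outside the lists, genes with small p-values were of mixed kinds. Nrep, a neuronal regeneration related protein, had 1138, 2531 and 1194 in pemafibrate libraries and 887, 2008 and 911 in DMSO libraries, 0.36 ± 0.04 (adjusted p = 0.0842). The zinc finger gene Zfp799 had 640.5, 657 and 428 in pemafibrate libraries and 423, 362 and 298 in DMSO libraries, without overlap, at 0.66 ± 0.09. Col7a1, the anchoring fibril collagen, had 701, 651 and 1024 in pemafibrate libraries and 996, 827 and 1424 in DMSO libraries, at −0.44 ± 0.06. Both had an adjusted p of 0.0941. Ugt1a9, a glucuronosyltransferase whose exons are partly shared with other Ugt1a genes, had 0.40 ± 0.06 (adjusted p = 0.187), with every pemafibrate library above every DMSO library.

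Fold changes of low-level genes were imprecise. The median standard error was 0.27 for the 2366 genes with a mean of 10 to 100, 0.080 for the 4349 from 100 to 1000 and 0.029 for the 583 at 10000 and above. Of 67 genes with a log2 fold change of at least 1 in size, 31 were at 0 in some library, 24 were pseudogenes and 52 had a mean below 50. Among all 13210 genes tested, 541 were pseudogenes and 11515 had a mean of at least 50. Cplane1, a ciliogenesis gene, had 1265, 3335 and 4248 in pemafibrate libraries and 1214, 1358 and 1301 in DMSO libraries. Its level in pemafibrate replicate 1 was close to DMSO, and the log2 fold change of 1.02 ± 0.26 had an adjusted p of 0.508.

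**Figure D4:**
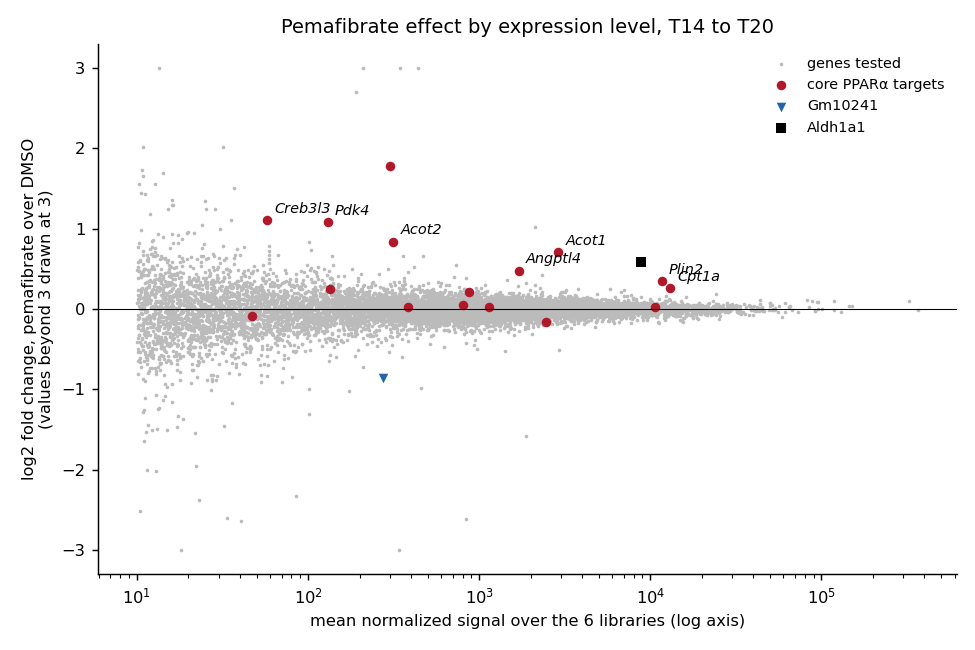
Log2 fold change (pemafibrate minus DMSO) of the 13210 tested genes against their mean normalised count on a log axis; values beyond 3 are drawn at 3, core PPARα targets are in red, Aldh1a1 is a black square and Gm10241 a blue triangle. The spread narrows as the level rises, and Acot1, Aldh1a1 and Plin2 stand above the cloud at their level.

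The same exposure length from T24 to T30 asks whether the phase of the clock alters the response, though that window also lies later in the T scale. No gene's effect differed between T14 to T20 and T24 to T30 at an adjusted p under 0.05 (0 of 13258 genes, with 1225 at an unadjusted p under 0.05, 9.24%), and 0 differed from T0 to T24 (654 at an unadjusted p under 0.05, 4.93%). Acot2 had a log2 fold change of 0.84 ± 0.09 at T14 to T20, against 0.70 ± 0.09 at T24 to T30, a difference of 0.14 (95% interval −0.12 to 0.41). Creb3l3 had 1.11 ± 0.17 and 1.255 ± 0.207, a difference of −0.15 (−0.74 to 0.44). For Cpt1a the values were 0.26 ± 0.03 and 0.29 ± 0.04, a difference of −0.04 (−0.13 to 0.06). Aldh1a1 had 0.58 ± 0.05 at T14 to T20 and 0.47 ± 0.04 at T24 to T30, a difference of 0.11 (−0.02 to 0.24). These intervals bound the differences and do not show that the windows act alike.

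Against the 24 h exposure, Aldh1a1 had 0.58 at T14 to T20 and 0.75 at T0 to T24, a difference of −0.17 (−0.30 to −0.04), and Cpt1a had 0.26 and 0.37, a difference of −0.11 (−0.21 to −0.02). Both had an adjusted p of 0.985. Acot2 differed by −0.11 (−0.38 to 0.15) and Hsdl2 by −0.002 (−0.20 to 0.19). Ppara had 0.50 ± 0.20 at T14 to T20 and −0.50 ± 0.22 at T0 to T24, a difference of 1.00 (0.26 to 1.75, adjusted p = 0.985). Ugt1a9 had 0.40 ± 0.06 at T14 to T20 and −0.09 ± 0.09 at T0 to T24, a difference of 0.49 (0.26 to 0.72, adjusted p = 0.899). The windows use different vehicle libraries and were scaled separately, so only effects within a window were set side by side.

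**Figure D5:**
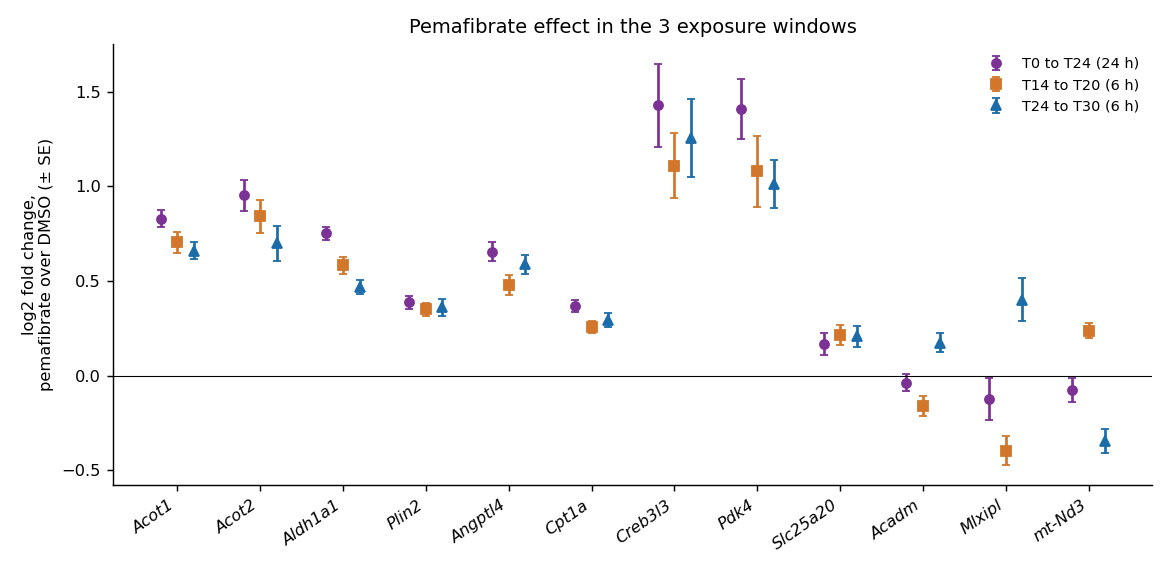
Log2 fold change (pemafibrate minus DMSO) of 12 genes, picked after their values were seen, in the 3 windows, in time order; points are the fitted means of 3 pairs and bars their SE. Acot1, Acot2 and Aldh1a1 are above 0 in every window, and mt-Nd3 is at 0.24 at T14 to T20 and −0.35 at T24 to T30, a difference that did not pass the test.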

How the data were processed

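RNA-seq of AML12 cells was deposited as 1 table per exposure window. The deposited values have the unit signal: estimated counts per Ensembl gene, scaled by the authors across the 6 libraries of each table. Per the file headers the columns are named as salmon output files are. The scaling method, tool versions, genome build and annotation were not given in any source used here, and the read depth before scaling is unknown, so no count test and no counting interval was used. Because the tables were scaled separately, levels were compared only within a window.

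Symbols came from a GENCODE M21 name table for 35181 of 35551 gene IDs, and 14059 genes were at 0 in all 6 libraries. Values were taken as log2(value + 1), genes with a mean of at least 10 were kept (13210), and limma 3.58.1 in R 4.3.3 was fitted with a variance trend and the replicate number as a block, with Benjamini-Hochberg adjustment over all genes tested and a threshold of 0.05. Adjusted p-values in the text come from this fit. Differences between windows came from a fit of 18 libraries with each replicate pair as a block. The pairing comes from the replicate numbers in the labels: deviations of same-numbered libraries from their group means correlated at 0.637, 0.468 and 0.589, against −0.437 to −0.134 for different numbers. The script was run on simulated data with independent noise whose size followed a smooth trend with level. That run did not test whether the variance trend suits the deposited values.

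The comparison, its members and the gene lists were chosen with earlier results of these data known. Genes were named by a rule: called genes, all core PPARα targets, all clock genes and Ppara, up to 5 genes of smallest p in each other list, 10 of smallest p in no list, 5 of smallest p in each window difference, and the 8 largest rises and 8 largest falls shared by all pairs at a mean of at least 100. The rule gave more genes than are described: those in the text are a selection made after their values were seen, as were the genes in the figures. A few genes are included in counts and not reported here by name. The promoter genes, motifs and 250-base window were also settled after results were seen. An earlier search had used 3 further motifs (E-box, GC box and TATA) and 300 bases, and was narrowed to leave out transcribed bases. Alternatives were another pseudocount, other filters, rescaling, no block, other variance settings and leaving out each pair.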

Additional observations from a re-analysis of the deposited data

Results flagged for a closer look

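In several genes every pair at T14 to T20 had the direction opposite to every pair of another window. The difference of effects was tested by limma in each, and none passed the adjusted threshold. The genes were picked for these opposite directions, so their intervals and p-values come from the values that chose them. Over all 13210 genes, 373 were higher here and lower in all pairs at T24 to T30, and 391 the reverse. Against T0 to T24 the counts were 167 and 170.

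Metabolic genes came first among those described. Acadm, the medium-chain acyl-CoA dehydrogenase, had −0.16 at T14 to T20 and 0.17 at T24 to T30 (log2), a difference of −0.33 (95% interval −0.50 to −0.17, adjusted p = 0.327). Pdhb, a pyruvate dehydrogenase subunit, had a difference of −0.27 (−0.45 to −0.09, adjusted p = 0.393). Mlxipl had −0.40 and 0.40, a difference of −0.8 (−1.15 to −0.44, adjusted p = 0.249). Sardh, sarcosine dehydrogenase, had −0.22 and 0.23, a difference of −0.45 (adjusted p = 0.222). For the receptor gene Ppard the values were −0.29 and 0.30, a difference of −0.59 (adjusted p = 0.421), and for mt-Nd3 they were 0.24 and −0.35, a difference of 0.58 (adjusted p = 0.222).

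Among other genes the differences from T24 to T30 were −0.49 for Safb2, −1.09 for Pax8, −0.48 for Rhbdd2 (adjusted p = 0.128, the smallest of these), 0.32 for Eif5b and −0.29 for Tmem184b. Differences from T0 to T24 were −1.68 for the pseudogene Gm10241, −0.12 for Mcm7, −0.24 for Rhbdd2, −0.39 for Tmem184b and −1.4 for Slc6a19, with adjusted p-values of 0.862 to 0.985.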

How the results depend on the processing

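The fit called 5 genes, and that count moved with the settings. It was 0 with no replicate block, 0 with no filter on low values and 0 with no variance trend, 3 after upper-quartile rescaling, 8 with robust variance estimates and 9 in a fit of all 18 libraries. Leaving out a pair gave 3 to 13 calls, with 13 without pair 2. The cause was not tested. Acot1 and Aldh1a1 were each called in 10 of 13 alternatives, whichever pair was left out. Plin2 was called in 7 and Gm10241 in 4. Rescaling by median ratios, whose factors were equal in all 6 libraries, left the count at 5. Differences between windows stayed at 0 calls, except that leaving out pairs gave 0 to 1 against T24 to T30 (1 without pair 2) and 0 to 1 against T0 to T24 (1 without pair 1 and 1 without pair 3). The target list's median of 0.25 ranged from 0.23 to 0.29 without a pair. Of 1128 alternative values over 87 genes, 1087 kept direction and side of the threshold, 21 lost a call, 15 gained one and 5 reversed. Most of these genes were not called in the main fit, so they had no call to lose. Changing the block, the filter or the variance settings leaves a gene's fold change as it was, so direction could not change there. The count of kept values is therefore no measure of stability. The reversals came from leaving out a pair: Vnn1 ranged from −0.037 (without pair 1) to 0.089, Cd36 from −0.20 to 0.12 (without pair 2), Pex11a from −0.036 (without pair 3) to 0.084 and Nr1d1 from −0.073 to 0.054 (without pair 1), with 0.012 without pair 3. With 3 pairs and unknown read depth, genes with a mean of 10 to 100 had a median standard error of 0.27, which limits what could be called among them.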
